A study of Mus musculus with 15 samples.

Results

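Group 3 innate lymphoid cells (ILC3) of the mouse small intestine were compared around dusk and around dawn. ILC3 are tissue lymphocytes without rearranged antigen receptors that make interleukin-22 and help maintain the gut barrier. The comparison took all ILC3 libraries by the cell type and hour in their labels, 8 of the 15 libraries of the series. Dusk comprised zeitgeber times 10 and 16 (ZT10 and ZT16, either side of lights off), with 4 libraries, and dawn comprised ZT23 and ZT4 (either side of lights on), with 4 libraries. The remaining 7 libraries were ILC2, 3 at dusk and 4 at dawn. They served only for tests of whether a difference was the same size in both cell types, and for levels set beside ILC3. All mice were female, no treatment is named in the labels, and every library was polyA RNA from cells sorted by flow cytometry after the intestines of 6 mice per time were pooled. The labels do not state strain, genotype, age, light schedule, sort antibodies or gates. The design text calls the replicates biological, but no label says that the 2 libraries of a time came from separate pools, so p-values measure only how much these libraries differ from each other, and that spread may be technical.

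The ILC3 libraries held 5903163 to 24794403 counts, with the shallowest at ZT4 replicate 1, and all belonged to 1 batch by their labels. Kit, a receptor gene of ILC3, lay between 767.6 and 973.3 CPM (counts scaled to a common library size with TMM factors) at dusk and between 391.5 and 903.3 CPM at dawn. Il7r, Il23r, Ccr6, Ncr1, Il22, Il1r1, Thy1 and Ahr, which ILC3 also express, were present in all 8 libraries. Some of these genes are shared with ILC2. In the ILC2 libraries, scaled together with ILC3, Il7r had 311.9 to 700.7 CPM, Thy1 183.4 to 347.1 CPM and Ahr 164.8 to 386.6 CPM. Kit had 79.71 to 232.7 CPM there. RNA of other cell types was not even across them. The summed level of 28 epithelial genes was 1036 to 1348 CPM in the 4 dusk libraries, whereas in dawn libraries it was 1627 CPM at ZT23 replicate 1, 16410 CPM at ZT23 replicate 2, 469.7 CPM at ZT4 replicate 1 and 5478 CPM at ZT4 replicate 2. The sum of 26 myeloid and mast cell genes was 3531 to 5213 CPM at dusk and 5559 to 8828 CPM at dawn. These sums did not overlap, but they include Lyz1, which had 145.7 to 472.7 CPM at dusk. At dawn Lyz1 had 233 and 4169 CPM at ZT23 and 236.9 and 1577 CPM at ZT4. Its top values were thus in the 2 libraries of highest epithelial sum, and the separation of the arms depended on it. The sum of 15 B and plasma cell genes was 625.3 to 1746 CPM at dusk and 1260 to 4935 CPM at dawn. For 5 erythroid genes the sum was 93.07 to 183.2 CPM at dusk and 43.71 to 1555 CPM at dawn, with the highest value again at ZT23 replicate 2. T cell genes (22 genes, 2515 to 4336 CPM at dusk and 1165 to 5930 CPM at dawn), ILC2 genes (16 genes, 291.8 to 422.4 CPM at dusk and 277.9 to 412.3 CPM at dawn) and stromal and endothelial genes (16 genes, 148.2 to 227.7 CPM at dusk and 157.2 to 509 CPM at dawn) overlapped between the arms. None of these markers had 0 counts over the 8 libraries. Because 2 dawn libraries, ZT23 replicate 2 and ZT4 replicate 2, held the highest epithelial sums, results are also given without them, an alternative chosen after seeing the data.

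**Figure D1:**
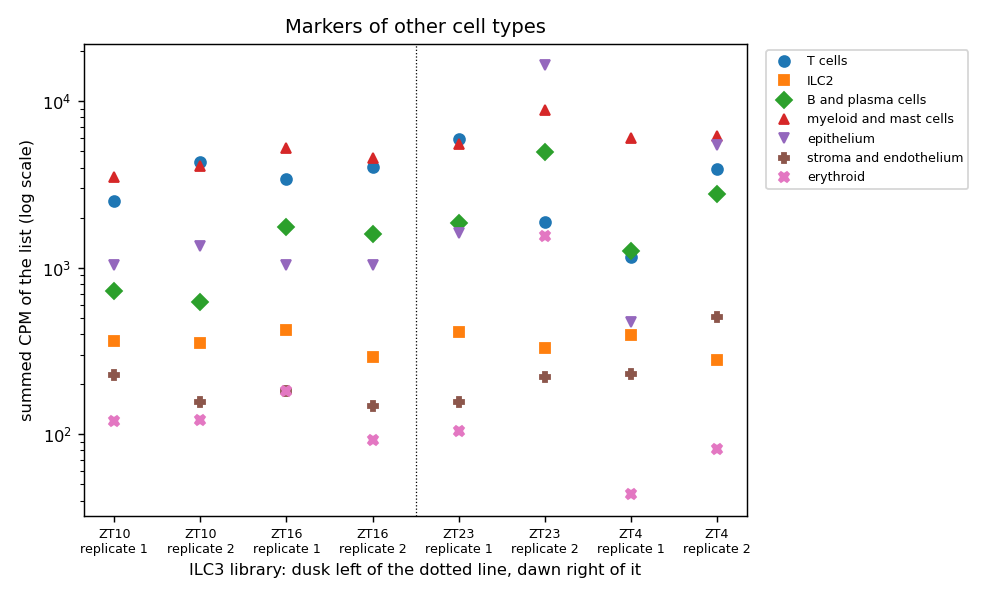
Summed CPM (log scale) of markers of 7 other cell types in each ILC3 library, with dusk libraries to the left of the dotted line and dawn libraries to the right. The epithelial sum was 16410 CPM at ZT23 replicate 2 and 5478 CPM at ZT4 replicate 2, against at most 1348 CPM in any dusk library.

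The circadian clock of mammalian cells is a feedback loop in which CLOCK and BMAL1 (gene Arntl) bind E-box sequences and drive genes of the PER and CRY repressors, which then block them. A second loop of REV-ERB repressors and ROR activators acts on Arntl. The PAR bZIP factors DBP, TEF and HLF bind D-box sequences and carry the rhythm to output genes, and NFIL3 competes with them at those sites. In innate lymphoid cells some of these proteins have other roles as well, since NFIL3, for example, is needed for their development.

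Across the transcriptome, no single gene was called between dusk and dawn at an adjusted p under 0.05 in edgeR's quasi-likelihood test. Of 13381 genes tested, 0 were called higher and 0 were called lower, both 0% of the genes tested. At an unadjusted p under 0.05 there were 1348 genes (10.1%), of which 457 were higher at dusk (3.42%) and 891 were lower (6.66%). All 4 dusk libraries lay above all 4 dawn libraries for 409 genes (3.06%), and below them for 195 genes (1.46%). DESeq2 called 2 genes higher (0.0149%) and 13 lower (0.0972%), and limma-voom called 0 in either direction. The genes below are therefore described by their values, and fewer cells of a type cannot be told apart from less RNA per cell in such bulk samples.

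The clock genes with an unadjusted p under 0.05 in edgeR were Per3, Per2, Cry1, Dbp, Tef and Hlf, all with higher dusk values. Per3 (Entrez 18628, mm10 chromosome 4, 150997018 to 151044707), a Period repressor, had 17.6 and 11.0 CPM at ZT10 and 13.6 and 9.43 CPM at ZT16, against 1.83 and 2.11 CPM at ZT23 and 1.91 and 7.96 CPM at ZT4. All 4 dusk libraries were above all 4 dawn libraries, and 1 library, ZT4 replicate 2, stood well above the other dawn libraries. The means were 12.9 ± 3.59 CPM at dusk and 3.45 ± 3.01 CPM at dawn (SD, n = 4 each). The fitted log2 difference, dusk minus dawn, was 1.87 ± 0.52 (SE, adjusted p = 0.496 in edgeR). With single libraries left out in turn it ran from 1.61, without ZT23 replicate 1, to 2.70, without ZT4 replicate 2. It was 1.29 without ZT23 and 2.79 without both dawn libraries of highest epithelial sum.

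Per2 (Entrez 18627, chromosome 1, 91415977 to 91459351), a core Period repressor, had 26.1 and 16.8 CPM at ZT10 and 25.9 and 22.9 CPM at ZT16, against 14.2 and 12.2 CPM at ZT23 and 19.7 and 11.7 CPM at ZT4. The arms overlapped through ZT10 replicate 2 and ZT4 replicate 1 alone. The log2 difference was 0.68 ± 0.24. Cry1 (Entrez 12952, chromosome 10, 85131700 to 85185054), a cryptochrome repressor, had 50.9 and 50.1 CPM at ZT10 and 62.3 and 53.3 CPM at ZT16, against 47.9 and 45.3 CPM at ZT23 and 36.5 and 30.8 CPM at ZT4. Its arms did not overlap, the lowest dusk library being 50.1 CPM and the highest dawn library 47.9 CPM, and its log2 difference was 0.43 ± 0.17. Both ZT16 libraries exceeded both ZT4 libraries by more than they exceeded the ZT23 libraries. The other cryptochrome, Cry2, had 33.2 and 32.4 CPM at ZT10 but 18.6 and 11.9 CPM at ZT16, against 15.5 and 11.6 CPM at ZT23 and 20.4 and 15.3 CPM at ZT4. Its 2 ZT10 libraries were the highest and its ZT16 libraries lay among the dawn values, and its log2 difference was 0.62 ± 0.34, or -0.03 without ZT10. Per1, a Period gene that also answers to glucocorticoids, had 982 and 733 CPM at ZT10 and 644 and 488 CPM at ZT16, against 533 and 299 CPM at ZT23 and 624 and 580 CPM at ZT4, a log2 difference of 0.48 ± 0.28.

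Among the PAR bZIP factors, Dbp (Entrez 13170, chromosome 7, 45705100 to 45710203), a direct target of CLOCK and BMAL1, had 85.8 and 75.2 CPM at ZT10 and 42.1 and 20.7 CPM at ZT16, against 16.7 and 9.66 CPM at ZT23 and 22.9 and 24.7 CPM at ZT4. Both ZT10 libraries were the highest, while ZT16 replicate 2 lay within the dawn range. Dusk averaged 56.0 ± 30.0 CPM and dawn 18.5 ± 6.81 CPM (SD, n = 4 each), with a log2 difference of 1.60 ± 0.44, or 0.78 without ZT10. Tef (Entrez 21685, chromosome 15, 81802673 to 81826863) had 80.6 and 80.3 CPM at ZT10 and 64.0 and 48.2 CPM at ZT16, against 49.1 and 31.8 CPM at ZT23 and 27.9 and 41.5 CPM at ZT4. Its arms overlapped by less than 1 CPM, at ZT16 replicate 2 and ZT23 replicate 1, and the log2 difference was 0.86 ± 0.23. Hlf (Entrez 217082) had 54.7 and 51.1 CPM at ZT10 and 49.9 and 20.9 CPM at ZT16, against 21.3 and 9.18 CPM at ZT23 and 26.9 and 22.7 CPM at ZT4. In 3 of the 4 dusk libraries it exceeded every dawn library, with ZT16 replicate 2 as the exception, and the log2 difference was 1.15 ± 0.37. The repressor Nfil3, which competes with these factors, had 260 and 227 CPM at ZT10 and 226 and 184 CPM at ZT16, against 198 and 142 CPM at ZT23 and 357 and 207 CPM at ZT4. Its log2 difference was -0.01 ± 0.27, or 0.05 when scaled by library size alone, so no direction was held.

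**Figure D2:**
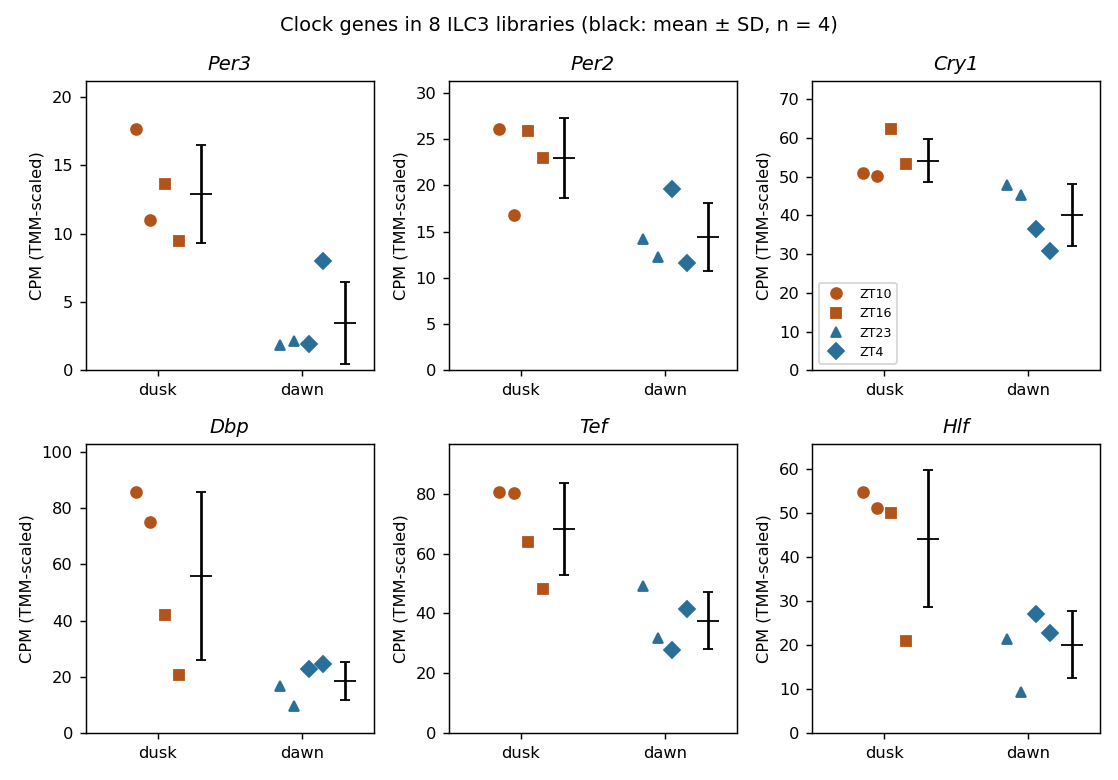
TMM-scaled CPM of Per3, Per2, Cry1, Dbp, Tef and Hlf in the 8 ILC3 libraries, each point 1 library, with dusk left of dawn and the mean ± SD of 4 libraries in black. Dusk and dawn points are fully separate for Per3 and Cry1, and overlap for the other 4 genes, where ZT16 replicate 2 is the lowest dusk library for Dbp, Tef and Hlf.

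For Per2, Per3 and Dbp alone, an exact two-sided permutation test was run on log2(CPM + 0.5) over the 70 splits of 8 libraries into 4 and 4. It gave p = 0.0286 for Per3, the smallest value such a design allows, p = 0.0571 for Per2 and p = 0.0857 for Dbp by exact permutation. Adjusted over the 3 genes by the Benjamini-Hochberg method, each of these exact permutation values became 0.0857, so none passed 0.05. These genes are known to be high around dusk in most mouse tissues, and earlier results of these data were known when they were chosen.

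The other repressors overlapped between dusk and dawn. Of 15 repressor genes, all 15 passed the filter on low counts, 12 had a log2 difference above 0 and 3 below, and the list median was 0.253 where the median over all genes tested was -0.011. Unadjusted p was under 0.05 for Per3, Per2 and Cry1, which is 20% of the list against 3.42% of all genes for higher values. The REV-ERB gene Nr1d1 had 296 and 205 CPM at ZT10 and 127 and 70.8 CPM at ZT16, against 108 and 83.1 CPM at ZT23 and 220 and 176 CPM at ZT4. Its high libraries were thus at ZT10 and ZT4, the 2 times of the light phase, so that both arms held high and low libraries, and the log2 difference was 0.25 ± 0.44. Nr1d2, the second REV-ERB gene, had 245 and 162 CPM at ZT10 and 137 and 87.7 CPM at ZT16, against 87.5 and 78.6 CPM at ZT23 and 240 and 143 CPM at ZT4 (0.21 ± 0.40). Bhlhe40 (0.19 ± 0.28) and Bhlhe41 (-0.37 ± 0.92), the DEC repressors, Ciart (0.27 ± 0.40), the casein kinase genes Csnk1d (0.16) and Csnk1e (0.15), and the ubiquitin ligase genes Fbxl21 (0.41) and Fbxw11 (-0.07) all overlapped between dusk and dawn. For Nr1d1, Nr1d2, Bhlhe40, Bhlhe41, Ciart, Csnk1e and Fbxw11 the sign of the difference depended on which time was left out.

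The activators overlapped between dusk and dawn. Arntl, which encodes BMAL1, had 54.1 and 40.3 CPM at ZT10 and 42.8 and 30.6 CPM at ZT16, against 38.6 and 39.9 CPM at ZT23 and 49.6 and 42.3 CPM at ZT4. Dusk averaged 41.9 ± 9.65 CPM and dawn 42.6 ± 4.91 CPM (SD, n = 4 each), a log2 difference of -0.02 ± 0.19. Clock (0.15 ± 0.17), its paralog Npas2 (-0.45 ± 0.31) and Rora (0.16 ± 0.40) overlapped in the same way. Arntl2 had 4 counts over the dusk libraries and 0 over the dawn libraries, and Rorb had 0 in both, so neither was tested. The list median of the 5 activators tested was 0.147, and 0 of them reached an unadjusted p under 0.05.

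The clock lists were also read without the 2 dawn libraries of highest epithelial sum. The PAR bZIP and Nfil3 list then had a median of 0.851, compared with 1.003 over all 8 libraries. In both fits 3 of its 4 genes (75%) had an unadjusted p under 0.05 with higher dusk values. Over all 8 libraries the share of all genes was 3.42%, which was not matched to the smaller fits of this paragraph. The median of the repressors was 0.215, compared with 0.253 over all 8 libraries. There 1 repressor (6.67%) had an unadjusted p under 0.05, in place of 3 (20%) over all 8 libraries. The repressors also depended on ZT23, without which 7 were above 0 and 8 below, with a median of -0.039, and without ZT23 replicate 2 alone the median was 0.075. The PAR bZIP and Nfil3 list depended on ZT10, without which its median was 0.68 and 0 of 4 genes had an unadjusted p under 0.05. Without ZT10, 173 of all genes were higher at that p, compared with 457 over all 8 libraries.

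**Figure D3:**
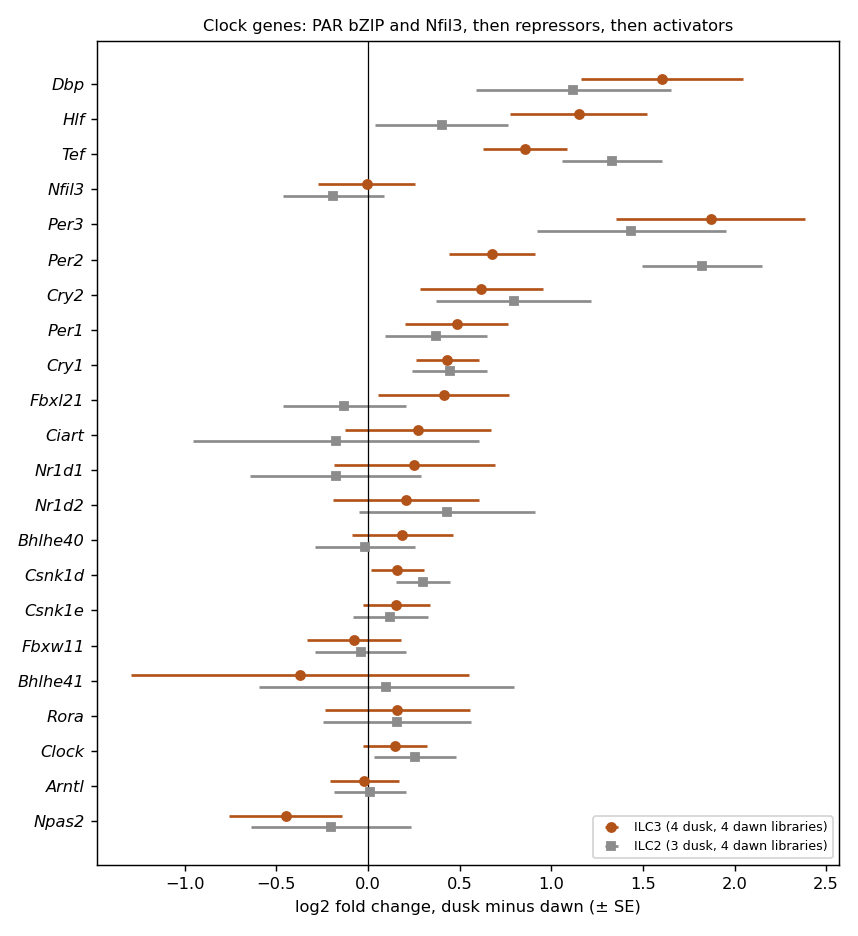
Log2 difference, dusk minus dawn, with its SE for 22 clock genes in ILC3 (4 dusk and 4 dawn libraries, orange) and ILC2 (3 dusk and 4 dawn libraries, grey). Dbp, Hlf, Tef, Per3 and Per2 lie to the right of 0 in both cell types, and Per2 is at 0.68 in ILC3 and 1.82 in ILC2.

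Whether these differences were of the same size in ILC3 and ILC2 was tested with an interaction term over all 15 libraries. ILC3 libraries were all in batch 2 and ILC2 libraries all in batch 1, so cell type and batch cannot be told apart. Of 14221 genes, 0 were called at adjusted p under 0.05 by edgeR and 0 by DESeq2, and 377 (2.65%) had an unadjusted p under 0.05 in edgeR. Per3 differed between dusk and dawn by 1.87 ± 0.52 in ILC3 and 1.44 ± 0.52 in ILC2, an interaction of 0.42 ± 0.71. Per2 had 0.68 ± 0.24 in ILC3 and 1.82 ± 0.33 in ILC2, an interaction of -1.14 ± 0.44 (adjusted p = 1 in edgeR). In ILC2 the Per2 values were 33.4 and 31.1 CPM at ZT10 and 22.9 CPM at ZT16, against 8.46 and 3.65 CPM at ZT23 and 10.2 and 10.8 CPM at ZT4. Dbp had 1.60 ± 0.44 in ILC3 and 1.12 ± 0.53 in ILC2, Tef had 0.86 ± 0.23 and 1.33 ± 0.27 in the same order, and Hlf had 1.15 ± 0.37 and 0.40 ± 0.36. None of these interactions passed the test.

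Promoter sequences are shown for Per3, Cry1 and Tef, 3 of the 6 clock genes with an unadjusted p under 0.05, whose windows hold a clock motif. The windows of Dbp and Hlf held neither motif, and the set of promoter windows searched had none for Per2. They come from RefSeq on GRCm38.p6, the build called mm10, and run from 250 bases before to 50 bases after an annotated start, 5′ to 3′ on the gene's strand. Letters in capitals are the E-box CACGTG or the D-box TTATGTAA or TTACGTAA, searched on both strands. The Per3 window holds 2 D-boxes, whose first bases are 205 and 158 bases before the start, the Cry1 window 1 E-box at 60 bases before it, and the windows of 2 annotated Tef starts 1 E-box each, at 127 and 138 bases before them.
Per3, chr4:151044616-151044915, minus strand: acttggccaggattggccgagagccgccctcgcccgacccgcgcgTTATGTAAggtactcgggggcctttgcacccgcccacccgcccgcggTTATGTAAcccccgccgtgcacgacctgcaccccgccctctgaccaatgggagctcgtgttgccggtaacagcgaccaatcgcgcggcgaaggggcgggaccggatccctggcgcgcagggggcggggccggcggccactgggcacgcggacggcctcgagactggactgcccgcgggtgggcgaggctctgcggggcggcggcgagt
Cry1, chr10:85185005-85185304, minus strand: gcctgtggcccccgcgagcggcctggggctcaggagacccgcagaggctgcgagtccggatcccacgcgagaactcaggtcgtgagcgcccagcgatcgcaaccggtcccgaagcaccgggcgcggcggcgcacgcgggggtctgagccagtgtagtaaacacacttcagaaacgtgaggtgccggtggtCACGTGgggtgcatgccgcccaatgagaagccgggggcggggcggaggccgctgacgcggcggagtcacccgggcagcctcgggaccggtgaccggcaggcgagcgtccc
Tef, chr15:81802423-81802722, plus strand: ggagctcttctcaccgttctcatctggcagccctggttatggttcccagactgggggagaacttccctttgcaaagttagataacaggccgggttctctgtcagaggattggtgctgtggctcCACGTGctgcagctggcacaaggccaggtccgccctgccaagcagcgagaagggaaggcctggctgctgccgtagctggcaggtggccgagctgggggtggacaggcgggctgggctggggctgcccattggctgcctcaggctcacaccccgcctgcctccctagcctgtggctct
Tef, chr15:81811164-81811463, plus strand: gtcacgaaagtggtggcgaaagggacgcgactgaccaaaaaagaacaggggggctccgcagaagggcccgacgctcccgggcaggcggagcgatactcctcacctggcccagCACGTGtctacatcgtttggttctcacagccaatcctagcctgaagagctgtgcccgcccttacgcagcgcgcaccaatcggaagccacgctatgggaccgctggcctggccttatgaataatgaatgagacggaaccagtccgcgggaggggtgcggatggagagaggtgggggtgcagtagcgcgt
Of 32851 promoter windows of the same length, 2349 (7.15%) held the E-box and 347 (1.06%) the D-box. Among the 21 clock genes matched in the table, with 30 windows, 5 had an E-box and 1 had a D-box. These count genes, some with several windows, whereas the percentages count single windows. The E-box genes were Per1, Cry1, Ciart, Bhlhe41 and Tef. Of these, Per1 (0.48 ± 0.28), Ciart (0.27 ± 0.40) and Bhlhe41 (-0.37 ± 0.92) had an unadjusted p above 0.05 in edgeR and overlapped between dusk and dawn. Tef, with its E-boxes, averaged 68.3 ± 15.4 CPM at dusk and 37.6 ± 9.60 CPM at dawn (SD, n = 4 each), and Cry1 54.1 ± 5.61 CPM at dusk and 40.1 ± 7.92 CPM at dawn. A match is a run of letters and not evidence of binding.

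Outside the clock, the genes with the smallest p and no overlap that were higher in every dusk library came from many functions. Wdr86 (Entrez 269633, chromosome 5, 24696900 to 24730698), which encodes a WD repeat protein, had 20.3 and 18.7 CPM at ZT10 and 22.1 and 24.3 CPM at ZT16, against 10.4 and 11.8 CPM at ZT23 and 9.73 and 8.77 CPM at ZT4. All 4 dusk libraries were well above all dawn libraries, by a log2 difference of 1.07 ± 0.19 (adjusted p = 0.496 in edgeR and 0.00522 in DESeq2). Apobec3 (Entrez 80287, chromosome 15, 79892058 to 79918218), a cytidine deaminase that restricts retroviruses, had 197 and 175 CPM at ZT10 and 202 and 189 CPM at ZT16, against 141 and 95.5 CPM at ZT23 and 108 and 111 CPM at ZT4. Its dusk libraries lay between 175 and 202 CPM, and its log2 difference was 0.74 ± 0.15 (adjusted p = 0.496 in edgeR and 0.0207 in DESeq2). Wdr86 and Apobec3 were the only genes that DESeq2 called higher. Without the 2 dawn libraries of highest epithelial sum the differences were 1.08 for Wdr86 and 0.61 for Apobec3.

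Abcg1 (Entrez 11307), which exports cholesterol from cells, had 65.1 and 58.7 CPM at ZT10 and 82.9 and 63.2 CPM at ZT16, against 48.0 and 21.6 CPM at ZT23 and 34.5 and 35.7 CPM at ZT4 (0.95 ± 0.23). Dusp7, a phosphatase of MAP kinases, had 13.1 and 11.9 CPM at ZT10 and 18.1 and 17.8 CPM at ZT16, against 6.48 and 4.62 CPM at ZT23 and 3.82 and 9.35 CPM at ZT4 (1.31 ± 0.32). For both genes the ZT16 replicate 1 library was the highest of all 8. Cbfa2t3, a transcriptional corepressor, averaged 99.0 ± 32.5 CPM at dusk, where ZT16 replicate 2 alone reached 148 CPM, and 52.0 ± 8.45 CPM at dawn. Setd1b, a histone H3 lysine methyltransferase, lay between 74.6 and 79.1 CPM at dusk and between 33.2 and 58.3 CPM at dawn. Nr2c2, an orphan nuclear receptor, lay between 35.6 and 45.3 CPM at dusk and between 24.3 and 28.1 CPM at dawn. The Wnt coactivator gene Bcl9l (0.72 ± 0.17), the zinc finger gene Glis2 (0.90 ± 0.21) and Bmt2 (0.63 ± 0.15) were also among the 12 genes named by rule. Bmt2 encodes an S-adenosylmethionine sensor upstream of mTORC1. Heatr5b (0.59 ± 0.14) and the mRNA decapping gene Dcp2 (0.52 ± 0.13) completed the 12. Adjusted p was 0.496 in edgeR for each of the 12.

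The 12 genes with the smallest p that were lower in every dusk library held Idi1 and Msmo1 of sterol synthesis, described further on, and 10 genes of other functions. Edn1 (Entrez 13614, chromosome 13, 42301476 to 42307990), which encodes endothelin 1, had 2.01 and 1.77 CPM at ZT10 and 0.916 and 1.67 CPM at ZT16, against 4.37 and 46.5 CPM at ZT23 and 5.92 and 17.5 CPM at ZT4. The highest values stood in the 2 dawn libraries of highest epithelial sum, and the log2 difference was -3.54 ± 0.74 over all libraries (adjusted p = 0.496 in edgeR and 0.000764 in DESeq2) and -1.67 without those 2. Ocln, a tight junction gene, was -2.30 ± 0.59 over all libraries and -0.71 without them, and Yes1, a Src family kinase gene, was -2.31 ± 0.58 and -1.29 in the same order. The part of epithelial RNA in these values was not tested. Pla2g2d (Entrez 18782), a secreted phospholipase, had 4.02 and 3.75 CPM at ZT10 and 6.03 and 3.86 CPM at ZT16, against 6.99 and 11.2 CPM at ZT23 and 30.5 and 17.6 CPM at ZT4. Its highest library, ZT4 replicate 1, was the one of lowest epithelial sum, and its difference was -1.90 ± 0.44 over all libraries (DESeq2 adjusted p = 0.0292) and -2.06 without the 2 libraries.

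Txnip (Entrez 56338), a glucose-responsive inhibitor of thioredoxin, had 118 and 117 CPM at ZT10 and 136 and 114 CPM at ZT16, against 166 and 318 CPM at ZT23 and 195 and 203 CPM at ZT4. Its dusk libraries lay between 114 and 136 CPM and all dawn libraries were higher, with a log2 difference of -0.87 ± 0.21 over all libraries and -0.57 without the 2 dawn libraries of highest epithelial sum. Mertk, a receptor for apoptotic cells typical of macrophages, had 0.989 to 2.56 CPM at dusk and 4.04 to 9.45 CPM at dawn. The myeloid and mast cell sum was also higher in every dawn library, a separation that depended on Lyz1. The part of myeloid RNA in the Mertk values was not tested. Gpx3, a secreted glutathione peroxidase, had 2.72 to 5.16 CPM at dusk and 5.54 to 14.8 CPM at dawn. Cyp2j6 (-0.81 ± 0.20), a cytochrome P450 gene, Acta2 (-2.09 ± 0.54), the smooth muscle actin gene, and Pon3 (-1.22 ± 0.32), a lactonase gene, completed the 12, and adjusted p was 0.496 in edgeR for each. The 13 genes called lower by DESeq2 were Edn1, Mmrn2, Efna1, Clec1b, Pla2g2d, Emp2, C130074G19Rik, Ocln, Yes1, Cxadr, Myrf, Ehd2 and Tspan15. The members outside the 12 were named after their values were seen. Efna1 had 0.700 to 1.54 CPM at dusk and 0.954 to 38.9 CPM at dawn, and Cxadr 3.75 to 5.83 CPM at dusk and 4.39 to 47.3 CPM at dawn. Myrf had 0.700 to 1.93 CPM at dusk and 1.53 to 23.0 CPM at dawn, and Tspan15 2.93 to 5.64 CPM at dusk and 2.67 to 74.4 CPM at dawn. The arms of all 4 of these genes overlapped.

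Of 28 genes of sterol and fatty acid synthesis, 22 had a fitted difference below 0, and none passed the adjusted test. Cells make cholesterol through the mevalonate pathway, whose genes are driven by SREBP2 when membrane sterol is low, and fatty acids through a branch more tied to SREBP1. All 28 genes passed the filter on low counts, 6 of them were above 0, and the list median was -0.321, compared with -0.011 over all genes. Unadjusted p was under 0.05 with lower values for 10 members, 35.7% of the list against 6.66% of all genes. In 8 members all dusk libraries lay below all dawn libraries, 28.6% of the list against 1.46% of all genes.

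In the upper mevalonate pathway, Idi1 (Entrez 319554, chromosome 13, 8885606 to 8892396), the isopentenyl diphosphate isomerase, had 32.0 and 31.4 CPM at ZT10 and 30.5 and 30.6 CPM at ZT16, against 43.8 and 59.8 CPM at ZT23 and 67.0 and 41.8 CPM at ZT4. The 4 dusk libraries spread over 30.5 to 32.0 CPM while the dawn libraries spread over 41.8 to 67.0 CPM, and the log2 difference was -0.77 ± 0.18 over all libraries and -0.82 without the 2 dawn libraries of highest epithelial sum. Mvk, mevalonate kinase, had 19.8 to 23.9 CPM at dusk and 27.1 to 33.2 CPM at dawn (-0.45 ± 0.15). Fdps, farnesyl diphosphate synthase, differed by -0.38 and overlapped.

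In the steps after squalene, Msmo1 (Entrez 66234, chromosome 8, 64718123 to 64733578), the methylsterol monooxygenase, had 61.2 and 71.0 CPM at ZT10 and 91.5 and 77.5 CPM at ZT16, against 115 and 142 CPM at ZT23 and 100 and 116 CPM at ZT4. Every dawn library was at least 100 CPM and every dusk library was below that, and the log2 difference was -0.65 ± 0.17 over all libraries and -0.51 without the 2 dawn libraries. Nsdhl, which acts on the same intermediates, had 31.1 to 35.4 CPM at dusk and 42.6 to 55.8 CPM at dawn (-0.47 ± 0.14). Cyp51, lanosterol demethylase, had 151 to 210 CPM at dusk and 230 to 324 CPM at dawn (-0.48 ± 0.17), and Sc5d, a sterol desaturase, 33.5 to 45.4 CPM at dusk and 48.1 to 56.8 CPM at dawn (-0.40 ± 0.14). Sqle, squalene epoxidase, overlapped between arms (-0.33 ± 0.16).

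Among regulators and carriers, Insig1, which retains SREBP in the endoplasmic reticulum and is itself an SREBP target, had 142, 143, 142 and 141 CPM in the dusk libraries. In the dawn libraries Insig1 had 159 and 182 CPM at ZT23 and 178 and 216 CPM at ZT4 (-0.37 ± 0.14). Stard4, a sterol carrier, had 64.0 to 77.6 CPM at dusk and 84.0 to 122 CPM at dawn (-0.45 ± 0.15). The SREBP genes themselves, Srebf1 (0.23 ± 0.19) and Srebf2 (0.08 ± 0.17), and the fatty acid genes Fasn (0.20 ± 0.16), Acaca (0.23 ± 0.17) and Scd2 (0.24 ± 0.17) were on the other side of 0 and overlapped. Members of the list beyond Idi1, Msmo1 and Nsdhl are named here after their values were seen. Abcg1, the exporter described above, was higher in every dusk library.

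**Figure D4:**
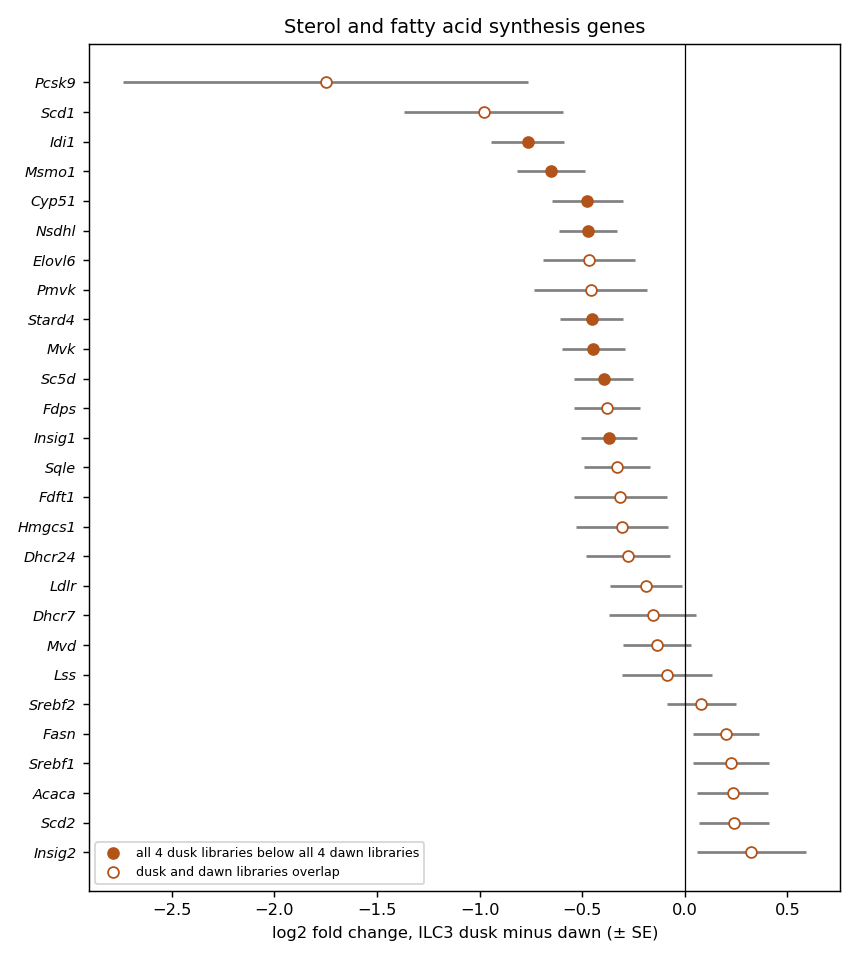
Log2 difference, ILC3 dusk minus dawn, with its SE for 27 genes of the sterol and fatty acid synthesis list, filled where all 4 dusk libraries lay below all 4 dawn libraries. The 8 filled genes lie between -0.77 and -0.37, and Srebf2, Fasn, Srebf1, Acaca, Scd2 and Insig2 lie to the right of 0.

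The sterol values moved with the libraries used. Without ZT23 replicate 2, 8 of the 28 genes had an unadjusted p under 0.05 with lower dusk values (28.6%, against 1.99% of all genes). Without both dawn libraries of highest epithelial sum there were 5 (17.9%, against 1.87% of all genes), with 21 members below 0 and a median of -0.142. Without ZT10 there were 2 (7.14%, against 1.37%) and the median was -0.127. In ILC2, 26 of the 28 genes were below 0 with a median of -0.34, and 0 of the 28 had an interaction at an unadjusted p under 0.05. Idi1 in ILC2 had 13.7 and 14.99 CPM at ZT10 and 23.0 CPM at ZT16, against 39.4 and 30.0 CPM at ZT23 and 23.7 and 17.0 CPM at ZT4, and its difference of -0.67 ± 0.27 stood beside -0.77 ± 0.18 in ILC3.

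Of 25 ILC3 identity genes, 24 had a fitted difference above 0 over all 8 libraries, with a median of 0.307, and none passed the adjusted test. An unadjusted p under 0.05 with higher values was reached by 3 (12%, against 3.42% of all genes), and by 1 without ZT23 replicate 2 (4%, against 2.15%) or without ZT4 replicate 2 (4%, against 3.16%). Cd163l1, a scavenger receptor of interleukin-17-producing cells, had 32.8 and 33.5 CPM at ZT10 and 39.2 and 32.1 CPM at ZT16, against 25.7 and 6.53 CPM at ZT23 and 20.8 and 15.5 CPM at ZT4 (1.01 ± 0.35). All dusk libraries were above all dawn libraries, and the 2 lowest values were those of the libraries of highest epithelial sum. The transcription factor genes Tox2 (0.54 ± 0.23) and Gata3 (0.63 ± 0.28) followed. Gata3 had 16.46 to 55.11 CPM in the ILC3 libraries and 302.3 to 665.4 CPM in the ILC2 libraries. Of 15 ILC2 genes tested in ILC3, 3 were higher at an unadjusted p under 0.05 (20%) and 1 was lower (6.67%, against 6.66% of all genes). Without the 2 dawn libraries of highest epithelial sum, 13 of the 25 identity genes were above 0 and the median was 0.007. The shift of the whole identity list was thus not seen there. The part of other cells' RNA in it was not tested.

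Effector genes did not share a direction. Lta (Entrez 16992), a lymphotoxin subunit with which ILC3 shape lymphoid tissue, had 34.9 and 34.8 CPM at ZT10 and 37.4 and 32.6 CPM at ZT16, against 27.7 and 14.3 CPM at ZT23 and 21.8 and 17.2 CPM at ZT4. Its arms did not overlap and its log2 difference was 0.79 ± 0.21, or 0.49 without the 2 dawn libraries of highest epithelial sum. Areg (Entrez 11839), an epidermal growth factor ligand of tissue repair, had 19.9 and 14.9 CPM at ZT10 and 17.5 and 13.0 CPM at ZT16, against 18.2 and 63.4 CPM at ZT23 and 43.5 and 38.2 CPM at ZT4. In 3 of 4 dawn libraries it was above every dusk library, with ZT23 replicate 1 inside the dusk range (-1.32 ± 0.33). The interleukin-22 gene Il22 had 908 and 546 CPM at ZT10 and 437 and 332 CPM at ZT16, against 581 and 527 CPM at ZT23 and 1625 and 379 CPM at ZT4 (-0.48 ± 0.47). Its 2 ZT4 libraries differed from each other by more than the arms did. Il17a (-0.37 ± 0.42), Il17f (-0.97 ± 0.72) and Ltb (0.27 ± 0.26) overlapped, and these genes and Il22 were named after their values were seen. Of the 18 effectors, 6 were above 0 and 12 below, with a median of -0.243, whereas without ZT4 replicate 1 there were 12 above and 6 below, with a median of 0.148.

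Genes of recent activation gave 2 members of 26 with every dusk library above every dawn library (7.69%, against 3.06% of all genes). Egr3, an immediate-early transcription factor gene, had 48.6 and 47.9 CPM at ZT10 and 41.2 and 50.9 CPM at ZT16, against 31.1 and 19.5 CPM at ZT23 and 37.2 and 27.8 CPM at ZT4 (0.71 ± 0.20). Nr4a1, an orphan nuclear receptor of the same kind, had 2765 and 2757 CPM at ZT10 and 2914 and 2203 CPM at ZT16, against 2048 and 1218 CPM at ZT23 and 1622 and 1902 CPM at ZT4 (0.65 ± 0.21). Rgs1, a regulator of G protein signalling, was lower (-0.69 ± 0.25) and overlapped. Of 26 immediate-early genes, 18 were above 0 with a median of 0.196 over all libraries, and 18 with a median of 0.125 without the 2 dawn libraries. Without ZT16 there were 11 above 0 and 15 below, with a median of -0.024.

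Receptors for signals from nerves, hormones and metabolites gave values in both directions. Rara, a retinoic acid receptor gene, had 112 and 99.5 CPM at ZT10 and 99.7 and 85.6 CPM at ZT16, against 68.1 and 48.9 CPM at ZT23 and 82.5 and 73.3 CPM at ZT4 (0.54 ± 0.18), with no overlap. Ptger2, a prostaglandin E2 receptor gene, was 0.76 ± 0.25 and overlapped only between ZT16 replicate 2, at 36.3 CPM, and ZT23 replicate 1, at 38.8 CPM. Vdr, the vitamin D receptor gene, had 10.7 to 25.6 CPM at dusk and 21.2 to 149 CPM at dawn, with the top values in the 2 libraries of highest epithelial sum, and was -1.84 ± 0.60 over all libraries and -0.29 without them. Vdr is also expressed by intestinal epithelium, and the part of that RNA was not tested. Of the 31 receptor genes 25 passed the filter, with 17 above 0. At an unadjusted p under 0.05, 4 were higher (16%, against 3.42% of all genes) and 2 lower (8%, against 6.66%).

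In antigen presentation, the class II transactivator gene Ciita had 142 and 109 CPM at ZT10 and 104 and 217 CPM at ZT16, against 60.9 and 47.9 CPM at ZT23 and 106 and 89.5 CPM at ZT4 (0.91 ± 0.31). Its arms overlapped by 1 pair of libraries, ZT16 replicate 1 and ZT4 replicate 1. The other 12 genes of the list were below 0, among them H2-Aa, a class II chain whose gene CIITA drives, which had 4192 and 5175 CPM at ZT10 and 3779 and 4998 CPM at ZT16, against 3222 and 4482 CPM at ZT23 and 10710 and 3883 CPM at ZT4 (-0.30 ± 0.37). The ZT4 replicate 1 library, the shallowest, set that sign, since the difference was 0.24 without it. The median of the 13 class II genes was -0.241 over all libraries and -0.537 without the 2 dawn libraries of highest epithelial sum. Without ZT4 replicate 1 it was 0.346 and all 13 genes were above 0, so the direction of the list depended on that library. Macrophages and dendritic cells also express these genes. The myeloid and mast cell sum, Lyz1 included, was 3531 to 5213 CPM at dusk and 5559 to 8828 CPM at dawn. The part of myeloid RNA in the class II values was not tested.

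Every dusk library lay above every dawn library for 2 clock output genes (5.71%, against 3.06% of all genes). The same held for 1 heat shock and cold-inducible gene (5.56%) and 1 glucocorticoid response gene (5.56%). Every dusk library lay below every dawn library for 1 glucocorticoid response gene (5.56%, against 1.46% of all genes). At an unadjusted p under 0.05, 2 clock output genes were higher (5.71%, against 3.42%) and 3 lower (8.57%, against 6.66%). Tspan4, a tetraspanin gene, had 16.7 and 23.4 CPM at ZT10 and 10.8 and 10.9 CPM at ZT16, against 6.29 and 4.08 CPM at ZT23 and 9.73 and 8.86 CPM at ZT4 (1.10 ± 0.36). Fkbp5, a chaperone gene driven by the glucocorticoid receptor, was 0.65 ± 0.24 and overlapped. Hsf1, the heat shock factor gene, had 50.3 to 52.3 CPM at dusk and 35.0 to 43.8 CPM at dawn (0.36 ± 0.13), with no overlap. Cxcr4, a chemokine receptor gene of retention in tissue, had 336 to 437 CPM at dusk and 243 to 327 CPM at dawn (0.36 ± 0.16). Over the lists, medians were -0.004 for 35 clock output genes, 0.038 for 18 heat shock and cold-inducible genes and -0.005 for 18 glucocorticoid response genes, all near the -0.011 of all genes.

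A pair of large lists had nearly all members on 1 side of 0 over all 8 libraries. All 35 oxidative phosphorylation genes were below 0, with a median of -0.41, and 47 of 48 ribosomal protein genes were below 0, with a median of -0.213. At an unadjusted p under 0.05 over all 8 libraries, 1 of the respiratory genes (2.86%) and 0 of the ribosomal genes (0%) were lower. These shares were below the 6.66% of all genes. The respiratory share depended on the ZT4 libraries, and without ZT4 it was 30 of 35 genes (85.7%), with a median of -0.754. Without ZT4 replicate 1 it was 9 genes (25.7%), and without ZT4 replicate 2 it was 11 (31.4%). Lower counts over all genes also rose without ZT4 and without ZT4 replicate 1, as given further on. Without ZT23 the lists were mixed, with 14 respiratory genes above 0 and 21 below (median -0.015) and 25 ribosomal genes above 0 and 23 below (median 0.018). Without the 2 dawn libraries of highest epithelial sum, 29 of 35 respiratory genes were below 0 with a median of -0.124, and 47 of 48 ribosomal genes with a median of -0.227. Cell division genes were 26 of 35 below 0 with a median of -0.22 over all libraries and 31 of 35 above 0 with a median of 0.364 without those 2, and 0.126 without ZT23 replicate 2 alone, so their direction depended on the libraries. The mitotic kinase gene Cdk1 had 7.41 to 11.7 CPM at dusk and 12.4 to 48.3 CPM at dawn, with the top value at ZT23 replicate 2.

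**Figure D5:**
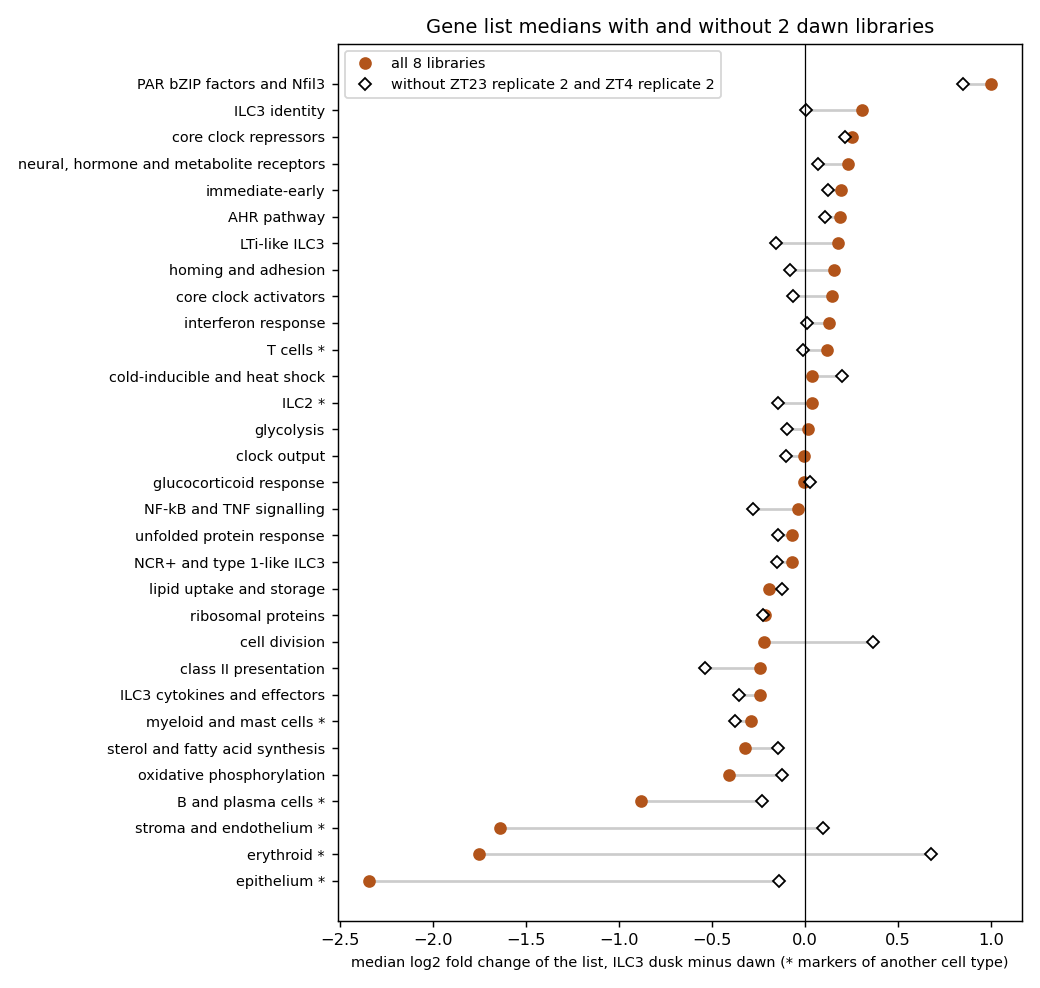
Median log2 difference, ILC3 dusk minus dawn, of each gene list over all 8 libraries (filled) and without ZT23 replicate 2 and ZT4 replicate 2 (open diamonds), with markers of other cell types starred. The PAR bZIP and Nfil3 median is 1.003 over all libraries and 0.851 without the 2, while the epithelial median is -2.345 over all libraries and -0.139 without them.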

How the data were processed

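The 15 files held raw read counts per gene that the authors deposited without normalization, under Entrez identifiers with gene lengths. Reads were counted with featureCounts on mm10, per the submitters' processing notes; the aligner, strand setting and treatment of multi-mapping reads are not given in the sources used here. RNeasy Micro RNA (100 ng) went into TruSeq libraries, per the labels' protocols.

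Of 22797 genes, 22718 were named through the RefSeq gene table of GRCm38.p6, the source of positions. Replicate libraries were checked for duplication: the 2 ILC3 libraries of a time differed by a chi-square of 28.6 to 178 per degree of freedom, beyond sampling noise. The 8 ILC3 libraries were fitted in edgeR 4.0.16 (R 4.3.3; filterByExpr with a minimum count of 10, TMM factors, quasi-likelihood, 6 residual degrees of freedom, biological coefficient of variation 0.379), with Benjamini-Hochberg adjustment over 13381 genes at 0.05. DESeq2 1.42.0 and limma 3.58.1 were alternatives, and the pipeline was tested on simulated data. An interaction with ILC2 was fitted over all 15 libraries.

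The comparison, the 31 gene lists (645 symbols, 643 found) and the tests were chosen with earlier results of these data known. Named genes were clock genes passing the filter, the 12 per direction of smallest p with no overlap and at least 5 CPM in the higher arm, since no gene was called, and the 3 of smallest p per other list; predicted, noncoding small RNA, mitochondrial and pseudogenes were skipped, and some genes are not reported here by name though list counts and sums hold them. Sums of markers use CPM. Alternatives of scaling, filter, tool and model, each library and each time left out, and the replicate block are given with the closing results.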

Additional observations from a re-analysis of the deposited data

Results flagged for a closer look

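Single libraries stood far from the other 3 of their arm in 23 of 236 groups of 4 libraries examined over 118 named genes. For independent, normally distributed values chance would give about 1 in 20 such groups. The groups here share the same libraries and hold genes picked partly for no overlap, so that rate is not matched to them. No cause was tested. A library counted when its gap to its nearest neighbour exceeded Dixon's 95% critical share of the range.

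In the clock, Hlf was 20.9 CPM at dusk in ZT16 replicate 2, where the other dusk libraries had 49.9 to 54.7 CPM, and Bhlhe41 was 1.82 CPM in the same library, where the others had 0.206 to 0.377 CPM. At dawn, Per3 was 7.96 CPM in ZT4 replicate 2, where the others had 1.83 to 2.11 CPM, and Fbxw11 was 217 CPM in ZT4 replicate 1, where the others had 100 to 117 CPM.

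The shallowest library, ZT4 replicate 1, also stood apart at dawn for antigen presentation and costimulation. H2-Aa was 10700 CPM there and 3220 to 4480 CPM in the other dawn libraries, Ctss 1270 CPM against 596 to 663 CPM, Cd83 2680 CPM against 891 to 1190 CPM, and Tnfsf4, which encodes OX40 ligand, 22.7 CPM against 6.39 to 6.57 CPM. Bmt2 was 36.5 CPM there and 26.3 to 28.0 CPM in the others.

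ZT23 replicate 2, the library of highest epithelial sum, held globin genes at 342 CPM for Hbb-bs, 416 CPM for Hbb-b1 and 567 CPM for Hba-a2, where no other dawn library exceeded 34.5 CPM for any of the 3. Globin genes are near-identical copies, so the split of reads between them is uncertain. In the same library Nqo1 was 30.4 CPM (others 1.72 to 6.21 CPM), Cdk1 48.3 CPM (12.4 to 14.3 CPM) and the respiratory gene Uqcrq 174 CPM (56.8 to 68.8 CPM). ZT23 replicate 1 stood apart for Nmur1 at 9.15 CPM (3.60 to 4.41 CPM).

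Among dusk libraries, ZT10 replicate 1 stood apart for Cdk1 at 7.41 CPM (others 11.0 to 11.7 CPM), Acta2 at 2.39 CPM (0.783 to 0.99 CPM) and the interferon gene Iigp1 at 6.49 CPM (2.72 to 3.13 CPM). ZT10 replicate 2 had Rpl10a at 95.7 CPM (70.1 to 73.7 CPM). ZT16 replicate 1 had Pla2g2d at 6.03 CPM (3.75 to 4.02 CPM) and Cd14 at 103 CPM (54.0 to 59.8 CPM), and ZT16 replicate 2 had Cbfa2t3 at 148 CPM (80.9 to 86.6 CPM).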

How the results depend on the processing

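No gene was called by edgeR under any of the scaling, filter, model, replicate block or left-out settings, whereas DESeq2 called 2 higher and 13 lower. Genes at an unadjusted p under 0.05 numbered 457 higher and 891 lower over all 8 libraries. With 1 library left out the higher count ran from 156 (without ZT16 replicate 1) to 849 (without ZT4 replicate 1), and the lower count from 270 (without ZT23 replicate 2) to 1579 (without ZT4 replicate 1). The higher count was 1050 without ZT4, 173 without ZT10 and 64 without ZT16. The lower count was 1787 without ZT4, 193 without ZT10, 208 without ZT16, 567 without ZT23, 454 with limma-voom and 256 without the 2 dawn libraries of highest epithelial sum. Differences between replicate 1 and replicate 2 were correlated between times from -0.133 to 0.189, apart from 0.459 between ZT23 and ZT4. At both of these dawn times replicate 2 held the higher epithelial sum, so replicate number tracked a shared difference within dawn. Whether the numbers pair samples across times was not tested. The replicate block gave 388 lower genes. The interaction count of 377 ran from 252 to 953 with 1 library left out, 953 being without ILC3 ZT4 replicate 1.

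Several genes changed sign, and the cause was not tested. Many were near 0 over all libraries. Others were not, with Hbb-bs at -2.23, Hbb-b1 at -1.75, Hba-a2 at -1.76, Lyz1 at -2.55 and Cry2 at 0.62. Without ZT23 the log2 difference was -0.01 for Clock, -0.20 for Rora, -0.18 for Nr1d1, -0.27 for Nr1d2, -0.05 for Ciart, -0.07 for Bhlhe40 and -0.04 for Csnk1e. Without ZT10 it was -0.32 for Rora, -0.03 for Cry2, -0.56 for Nr1d1, -0.28 for Nr1d2 and 0.33 for Bhlhe41. With 1 library left out it ran from -0.19 to 0.08 for Arntl, -0.21 to 0.54 for Rora, -0.14 to 0.52 for Nr1d1, -0.10 to 0.62 for Nr1d2, -0.22 to 0.26 for Fbxw11, -0.17 to 0.31 for Nfil3, -0.42 to 0.05 for Ctss, -0.51 to 0.24 for H2-Aa, -2.63 to 0.61 for Hbb-bs, -2.13 to 0.63 for Hbb-b1 and -2.15 to 0.88 for Hba-a2. Without ZT4 it was 0.10 for Arntl, 0.32 for Fbxw11, 0.41 for Nfil3, 0.03 for Ctss and 0.24 for H2-Aa. Without ZT16 it was 0.13 for Arntl, 0.07 for Fbxw11 and 0.09 for Nfil3. With library size as the only scaling Arntl was 0.02 and Nfil3 0.05. Nfil3 was also 0.04 with limma-voom, 0.03 with 4 time means, 0.03 with 8 means over 15 libraries and 0.02 with the replicate block. Without the 2 dawn libraries of highest epithelial sum the values were -0.13 for Rora, -0.04 for Nr1d2, -0.13 for Bhlhe40, 0.91 for Bhlhe41, 0.18 for Lyz1, 0.66 for Hbb-bs, 0.65 for Hbb-b1 and 0.94 for Hba-a2. Without ZT23 they were 1.08 for Hbb-bs, 0.88 for Hbb-b1 and 1.14 for Hba-a2.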

Other observations

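No member of the other gene lists passed the adjusted test, and their shares at an unadjusted p under 0.05 varied. For higher values the share was 14.3% of lymphoid tissue inducer, 4% of homing and 5% of glycolysis genes, against 3.42% of all genes. For lower values it was 14.3% of aryl hydrocarbon receptor, 8.7% of unfolded protein response and 4% of NF-kB and TNF genes, against 6.66% of all genes. Homing and adhesion genes were 19 of 25 above 0 with a median of 0.158 over all libraries and -0.081 without the 2 dawn libraries of highest epithelial sum. Genes typical of lymphoid tissue inducer ILC3 were 12 of 14 above 0 (median 0.177, or -0.153 without those 2), and those of NCR+ and type 1-like ILC3 were 9 of 21 above 0 (median -0.069). Aryl hydrocarbon receptor genes had a median of 0.187 over 7 genes, glycolysis genes 0.019 over 20 and interferon response genes 0.132 over 30. Unfolded protein response genes had a median of -0.068 over 23, with Trib3 at 1.51 ± 0.376 CPM at dusk and 4.22 ± 1.81 CPM at dawn (SD, n = 4 each), and NF-kB and TNF genes one of -0.034 over 25.

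Lipid uptake and storage genes had a median of -0.191 over 26 genes. Unadjusted p was under 0.05 with lower values for 5 of them (19.2%, against 6.66% of all genes). It was under 0.05 with higher values for 1 (3.85%, against 3.42%). Without the 2 dawn libraries of highest epithelial sum, 1 was lower at that p (3.85%, against 1.87% of all genes). Cpt1a, which brings long-chain fatty acids into mitochondria, had 85.4 to 97.3 CPM at dusk and 102 to 162 CPM at dawn, with no overlap. Fabp1, an enterocyte fatty acid binding protein gene, differed by -3.19, beside the epithelial sums given above.

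Of markers of other cells, all 27 epithelial genes tested were below 0 with a median of -2.345, the 15 stromal and endothelial genes had a median of -1.638, the 5 erythroid genes -1.751, the 14 B and plasma cell genes -0.88, the 24 myeloid and mast cell genes -0.288, the 22 T cell genes 0.12 and the 15 ILC2 genes 0.037. Without the 2 dawn libraries of highest epithelial sum the same medians were -0.139 for epithelium, 0.099 for stroma and endothelium, 0.68 for erythroid genes, -0.232 for B and plasma cells, -0.377 for myeloid and mast cells, -0.009 for T cells and -0.146 for ILC2.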
